A study of Drosophila melanogaster with 4 samples.

Results

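The cecropins and defensin of Drosophila melanogaster are 5 genes for small secreted antimicrobial peptides: CecA1, CecA2, CecB and CecC, which lie together in the cecropin cluster, and Def, which lies alone. They were chosen by gene family, with no measured value in the rule, though earlier results of these data were known. All 5 were found among the 17628 identifiers of the deposited read count table by matching FlyBase identifiers to gene symbols. The libraries came from whole flies of the Oregon strain, a wild-type laboratory stock, at 5 days of age. There were 2 groups, flies fed glucose and flies fed galactose, with 2 poly-A RNA libraries each and no other treatment or allele. The labels do not give the sex or number of the flies, how long they were fed, or whether libraries sharing a diet stem from separate cultures, so each p-value is set against the scatter of these libraries alone, and that scatter could be technical.

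Flies fight bacteria and fungi partly by releasing such peptides into the hemolymph and onto epithelia. The Imd pathway, which begins at peptidoglycan recognition proteins and ends at the NF-kappaB factor Relish, and the Toll pathway, which begins with cleavage of the ligand Spätzle and ends at the factors Dif and Dorsal, switch on their genes in the fat body, an organ similar to liver and adipose tissue, and in blood cells and gut. Cecropins are linear, helical peptides that break bacterial membranes, chiefly those of Gram-negative bacteria. Insect defensin is a peptide held together by disulfide bonds that acts chiefly on Gram-positive bacteria.

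The cecropin genes lie on chromosome 3R of build BDGP6, on a stretch of 6065 bases. CecA1 (FBgn0000276) runs from 30210874 to 30211273 and CecA2 (FBgn0000277) from 30212156 to 30212568, both on the plus strand. CecB (FBgn0000278) runs from 30213315 to 30213797 on the minus strand, and CecC (FBgn0000279) from 30216484 to 30216938 on the plus strand. Each is annotated with 1 transcript of 2 exons around a short intron, of 58 bases in CecA2 and CecB, 61 in CecA1 and 69 in CecC, and each encodes a precursor of 63 residues. Their exonic lengths are 339, 355, 425 and 386 bases in the order CecA1, CecA2, CecB and CecC. Def (FBgn0010385) is a gene of 1 exon of 399 bases on chromosome 2R, from 10054178 to 10054576 on the minus strand, encoding 92 residues. It lies inside an intron of magu, a gene on the opposite strand. No exonic base of the 5 genes is shared with another annotated gene. The cecropins are close copies of each other, CecA1 and CecA2 most of all, so reads that match more than 1 copy could have been dropped or split in counting and the values of single cecropins are uncertain to that extent.

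Total counts ranged from 21147212 to 25497099 per library. Levels are given as CPM, read counts scaled to a common library size after TMM scaling, which corrects totals for differences in composition. At these depths 1 CPM stands for 21.6 to 25.7 reads. Marker transcripts of the tissues of a whole adult were present: 5 of 6 fat body, 7 of 8 hemocyte, 7 of 7 midgut, 8 of 8 male reproductive tract and 5 of 5 ovary markers had reads in every library. The exceptions were the larval serum protein gene Lsp2 and the hemocyte gene Hemese (He), at 0 in at least 1 library. The fat body gene Fbp2 had only 3 reads in each glucose library and 1 in each galactose library, too few to be tested. Markers of both sexes thus had reads in every library. In RNA of whole flies, fewer cells of a type and less RNA per cell cannot be told apart.

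Each of the 4 cecropins had its 2 galactose values below its 2 glucose values, and Def did not. The mean level was 2.48-fold lower on galactose for CecA1, 5.77-fold lower for CecC, 8.196-fold lower for CecA2 and 14.2-fold lower for CecB, while Def differed by 1.07-fold. No member passed edgeR's quasi-likelihood test after adjustment over the 12529 genes tested: 0 of 5 members were called, in a comparison that called 0% of all genes (smallest adjusted p = 0.541 over all genes). DESeq2 also called 0 of the 5, where it called 0.584% of its genes as lower on galactose. At an unadjusted p under 0.05 in edgeR the 4 cecropins were lower, as were 5.16% of all genes tested. A lack of overlap in that direction was seen for 23.4% of all genes tested, and a fitted level at least 2-fold lower on galactose, as for the 4 cecropins, for 3.83%. CecA2, CecB and CecC were tested because of their glucose values, as described below, which limits what these shares say about them.

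**Figure D1:**
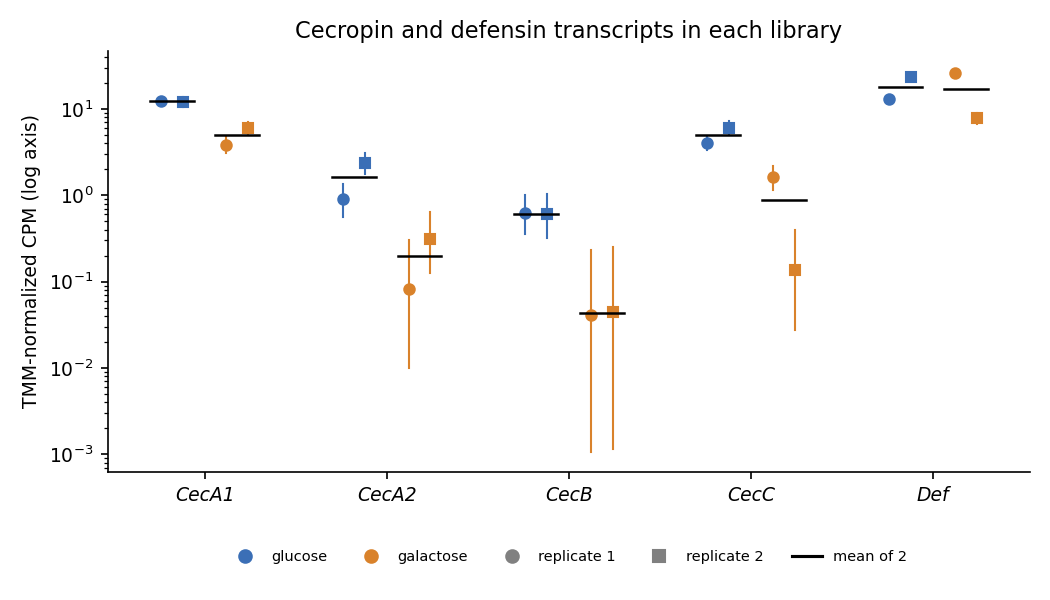
TMM-normalized CPM of the 5 genes on a log axis, with 1 point per library, its exact 95% Poisson interval of counting error as a vertical line and the mean of the 2 libraries of a diet as a bar. For each cecropin the 2 galactose points lie below the 2 glucose points; for Def, galactose replicate 1 has the highest value and galactose replicate 2 the lowest.

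CecA1 was the most abundant cecropin and the one measured with the most reads. It had 320 and 260 reads in glucose replicates 1 and 2, or 12.47 and 12.04 CPM, and 93 and 134 reads in galactose replicates 1 and 2, or 3.86 and 6.02 CPM. The glucose libraries were nearly equal and the groups did not overlap. The glucose mean was 12.3 ± 0.30 CPM (SD, n = 2) and the galactose mean 4.94 ± 1.53. The log2 fold change of galactose over glucose was -1.31 ± 0.37 (SE), with an unadjusted 95% interval of -2.19 to -0.43 (edgeR, adjusted p = 0.582).

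CecA2, the neighbour of CecA1 that encodes the same mature peptide, was far less abundant. It had 23 and 51 reads on glucose, or 0.90 and 2.36 CPM, and 2 and 7 on galactose, or 0.083 and 0.31 CPM. The glucose libraries differed 2.64-fold from each other, and the higher galactose library was still below the lower glucose one. The glucose mean was 1.63 ± 1.04 CPM and the galactose mean 0.20 ± 0.16. Its log2 fold change was -3.01 ± 0.81 (SE; edgeR adjusted p = 0.582), and with 1 library left out it lay between -4.20 without galactose replicate 2 and -2.16 without glucose replicate 2. The 2 reads of galactose replicate 1 are fewer than the 3 that a count of 0 allows, and over the pooled reads, 74 against 9, the exact 95% counting interval ran from 4.03 to 18.3-fold lower.

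CecB was the rarest member. It had 16 and 13 reads on glucose, or 0.62 and 0.60 CPM, and 1 read in each galactose library, or 0.042 and 0.045 CPM. A library in which no read is seen could still hold up to 3 reads, 0.12 to 0.14 CPM, so the galactose level was under what this depth can measure. Over the pooled reads, 29 against 2, CecB was 14.2-fold lower on galactose with an exact 95% interval of 3.60 to 123 for counting error alone. The fitted log2 fold change was -3.67 ± 0.79 (SE; edgeR adjusted p = 0.541), and it depended on the prior count: with a prior count of 1 it was -2.93.

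CecC, the cecropin that lies apart at the far end of the cluster, was the second most abundant. It had 104 and 131 reads on glucose, or 4.05 and 6.07 CPM, and 39 and 3 on galactose, or 1.62 and 0.13 CPM. Both galactose values were lower, but they lay 12.01-fold apart from each other. The glucose mean was 5.06 ± 1.42 CPM and the galactose mean 0.88 ± 1.05. Its log2 fold change was -2.51 ± 0.88 (SE; edgeR adjusted p = 0.582). The size depends on which galactose library is used: without galactose replicate 2 the log2 fold change was -1.64, and without galactose replicate 1 it was -5.24.

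Def had more reads than CecA1 in all 4 libraries, by little in glucose replicate 1 and by most in galactose replicate 1, and varied between libraries without following the diet. It had 334 and 505 reads on glucose, or 13.0 and 23.4 CPM, and 633 and 174 on galactose, or 26.3 and 7.82 CPM. The highest and the lowest of the 4 values were both from galactose libraries, so the groups overlapped fully. The glucose mean was 18.2 ± 7.34 CPM and the galactose mean 17.05 ± 13.05. Its log2 fold change was -0.09 ± 0.58 (SE; edgeR adjusted p = 0.963). The 95% interval of -1.47 to 1.28 holds changes of more than 2-fold in either direction, and the direction turned when a library was left out, from -1.29 without galactose replicate 1 to 0.53 without galactose replicate 2. Whether the fold change of Def differed from those of the cecropins was not tested.

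The filter on low counts, which kept genes above 0.426 CPM in 2 libraries, bears on these counts. CecA1 and Def were above it in all 4 libraries. CecA2 and CecB were above it only in the glucose libraries, and CecC in those and in galactose replicate 1, so these 3 genes were tested because of their glucose values and could hardly have shown a higher level on galactose. With a stricter filter of 1 CPM in 2 libraries, CecA1, CecC and Def remained in the test and CecA1 and CecC kept both galactose values below both glucose values.

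Calls among the members appeared when a library was left out. Without glucose replicate 1, edgeR called CecA1 (adjusted p = 0.0378), CecA2 (0.00041) and CecC (0.000112) as lower on galactose, along with 2.75% of all genes, and without glucose replicate 2 it called CecC (0.0166), along with 0.874%. Without either galactose library edgeR called none of the 5. DESeq2 called CecC without galactose replicate 1 (adjusted p = 0.00378), along with 0.333% of genes. It called none of the 5 without glucose replicate 1 (1.66% of genes lower), glucose replicate 2 (0.11%) or galactose replicate 2 (0.149%), and with the replicate number as a block it called CecC, along with 0.829% of genes. The 4 cecropins were lower on galactose under every alternative in which they could be fitted, 17 each for CecA1 and CecC and 16 each for CecA2 and CecB. These alternatives refit the same 4 libraries or a part of them, so their number is not separate evidence.

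**Figure D2:**
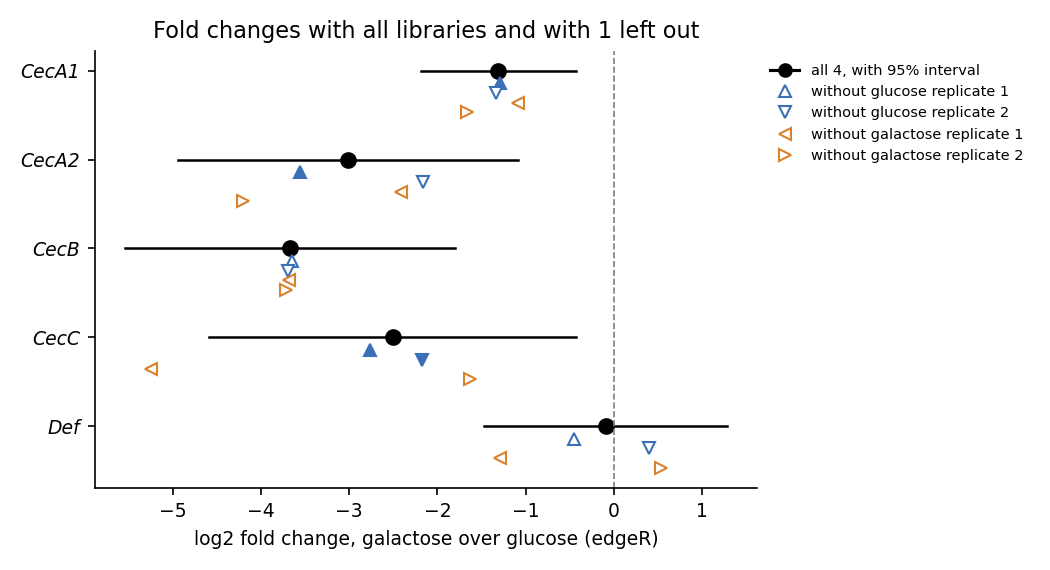
Log2 fold changes of galactose over glucose from edgeR, with all 4 libraries (black points, lines for unadjusted 95% intervals) and with 1 library left out (triangles, filled where the adjusted p is under 0.05). Every value of the 4 cecropins lies below 0, that of CecC moving between -5.24 and -1.64, while Def lies on both sides of 0, between -1.29 and 0.53.

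Differences between the 2 libraries of a diet were set against counting error with an exact binomial test for each of the 5 genes in each diet, 10 tests in all, which compares libraries and not conditions. CecA1 and CecB agreed between the glucose libraries within counting error (exact p = 0.708 and 1), and CecB between the galactose libraries (exact p = 1). CecA2 on galactose did not differ beyond it at this depth (exact p = 0.0976, 0.139 adjusted over the 10). The other 6 pairs differed by more than counting error, with adjusted values up to 0.00343. The widest of these was the 12.01-fold difference of CecC on galactose (6.17e-08), and the smallest adjusted value was that of Def on galactose (3.36-fold, 1.76e-53), the gene with the most reads. Reads were counted without molecular identifiers, so intervals and floors here cover counting error only.

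The summed cecropin reads differed less between the galactose libraries than those of CecA1 or CecC did. They came to 463 and 455 in the glucose libraries, or 18.04 and 21.07 CPM, and to 135 and 145 in the galactose libraries, or 5.60 and 6.52 CPM. The glucose mean of the sum was 19.6 ± 2.14 CPM (SD, n = 2) and the galactose mean 6.06 ± 0.65, which is 3.23-fold lower. Def reads amounted to 0.72 and 1.11 times the cecropin reads on glucose and to 4.69 and 1.2 times on galactose. Def thus outnumbered the cecropins in glucose replicate 2 and in both galactose libraries, by most in galactose replicate 1.

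The makeup of the sum shifted in galactose replicate 2. CecA1 supplied 69.1% of the cecropin reads in glucose replicate 1 (exact 95% interval 64.7 to 73.3%), 57.1% in glucose replicate 2 (52.5 to 61.7%) and 68.9% in galactose replicate 1 (60.4 to 76.6%), but 92.4% in galactose replicate 2 (86.8 to 96.2%). CecC made up 22.5%, 28.8% and 28.9% in the first 3 of these libraries and 2.07% in galactose replicate 2 (0.43 to 5.93%). CecA2 held 4.97% and 11.2% on glucose and 1.48% and 4.83% on galactose, and CecB 3.46% and 2.86% on glucose and 0.74% and 0.69% on galactose, the last 2 from 1 read each. CecA2 and CecB thus had smaller shares in both galactose libraries than in either glucose library, though for CecA2 galactose replicate 2 was close to glucose replicate 1. The exact intervals of CecB all overlapped between the diets. Those of CecA2 did as well, except glucose replicate 2 (8.46 to 14.5%) against galactose replicate 1 (0.18 to 5.25%). The 2 galactose libraries thus reached nearly the same cecropin sum with different shares of CecA1 and CecC.

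**Figure D3:**
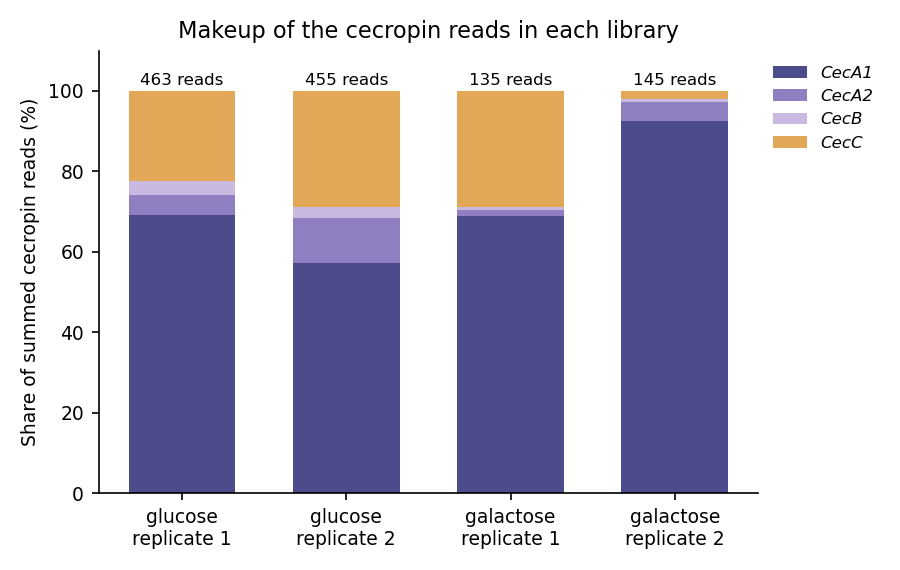
Share of the summed cecropin reads from each gene, in percent, for each library, with the number of reads above the bar. CecA1 holds between 57.1% and 69.1% in 3 libraries and 92.4% in galactose replicate 2, where CecC falls to 2.07%.

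Per length of transcript, as CPM per kilobase of exons, the order on glucose was Def (45.6 ± 18.4), CecA1 (36.2 ± 0.89), CecC (13.1 ± 3.69), CecA2 (4.59 ± 2.92) and CecB (1.44 ± 0.036). Def and CecA1 did not differ beyond their spread, Def being lower than CecA1 in glucose replicate 1 and higher in glucose replicate 2. Each later neighbour in the order was lower in both libraries than the one before it. On galactose the order was the same, with Def at 42.7 ± 32.7, CecA1 at 14.6 ± 4.51, CecC at 2.27 ± 2.72, CecA2 at 0.56 ± 0.46 and CecB at 0.10 ± 0.0057. There CecC and CecA2 overlapped. Among the tested genes with an annotated length, CecA1 stood at percentiles 81.5 and 80.5 of this level in the glucose libraries and at percentiles 51.2 and 61 in the galactose libraries, so it went from among the higher genes to near the middle. Def ranged from percentile 63.6 to 90.2.

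The other genes of the cecropin locus did not share the pattern as a block. Andropin (Anp, FBgn0000094), a peptide gene of the male ejaculatory duct that ends 492 bases before CecA1 begins, was at 102.6 and 38.2 CPM on glucose and 59.0 and 65.4 on galactose, so both galactose values lay between the glucose values (log2 fold change -0.18 ± 0.45 SE, edgeR adjusted p = 0.904). The cecropin pseudogenes Cec-Psi1, between CecA1 and CecA2, and Cec2, between CecA2 and CecB, had 0 reads in every library, which allows up to 0.12 to 0.14 CPM in each. Beyond Anp, the ribosomal protein gene RpS7 was at 2477 and 2887 CPM on glucose and 2266 and 1871 on galactose, and CG9743 at 54.0 and 61.0 on glucose and 44.99 and 44.53 on galactose. These were lower in both galactose libraries but by less, with log2 fold changes of -0.37 and -0.36 (edgeR adjusted p = 0.663 and 0.686). The host gene of Def, magu, was at 54.6 and 60.8 CPM on glucose and 58.7 and 86.7 on galactose, an order of libraries unlike that of Def. Cec-Psi1, RpS7, CG9743 and magu were chosen after the values were seen.

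**Figure D4:**
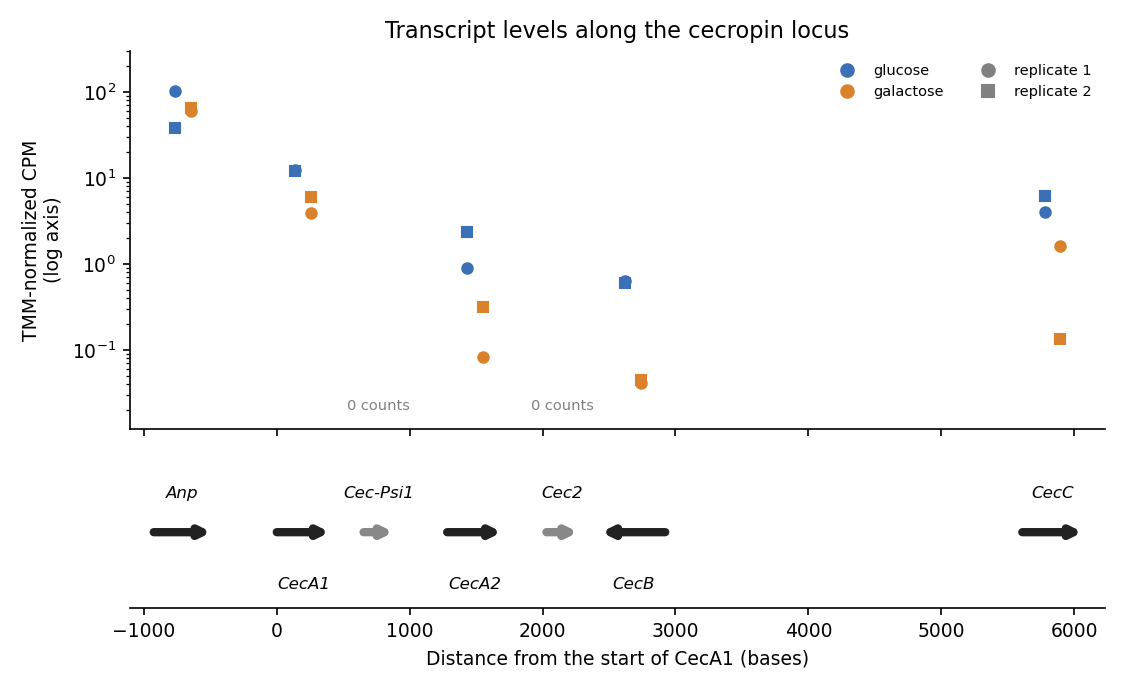
TMM-normalized CPM on a log axis for the genes of the cecropin locus, placed by distance in bases from the start of CecA1, with the genes and their strands as arrows below (pseudogenes in grey). Anp on the left lies above all cecropins with the diets mixed, both pseudogenes have 0 counts, and CecA1, CecA2, CecB and CecC each have lower galactose values.

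The patterns of the members over the 4 libraries differed from each other. The measure was the root mean square difference of log2(CPM + 0.5) after each gene's own mean was removed. CecA1 and CecB were the closest pair of members at 0.23, while CecC was 0.88 to 0.98 away from the other cecropins, and Def 0.77 to 0.998 from all 4. The added 0.5 CPM flattens the low values of CecB and CecA2, and that of CecC in galactose replicate 2 (0.13 CPM). Distances to these genes thus understate how far their galactose values lie from their glucose values. The 12.01-fold gap of CecC between the galactose libraries is narrowed on this scale as well. Among 11561 other genes above 1 CPM, the 5 nearest to CecC were the serpin gene Spn88Eb (0.19), the short Bomanin gene BomS2 (0.22), the tailed Bomanin gene BomT2 (0.24), Sid (0.26) and edin (0.27), against a median of 1.32 over all of them. Spn88Eb was at 48.6, 64.6, 16.3 and 6.56 CPM in the order glucose 1, glucose 2, galactose 1 and galactose 2, and so shared with CecC the high glucose replicate 2 and the low galactose replicate 2. Nearest to CecA1 were Sgp (0.031, at 185.95, 176.6, 58.6 and 90.9 CPM in the same order), CG9377 (0.12), CG31205 (0.14), sxe2 (0.15) and the eye pigment gene sepia (se, 0.16), against a median of 0.72. Nearest to CecA2 on this scale were CG15534 (0.039, though its log2 fold change was -1.57 against -3.01 for CecA2), CG9759 (0.16), the cuticle protein gene Lcp1 (0.17), CG43920 (0.18) and CG14567 (0.19), against 0.92. Nearest to Def were Hesr (0.15), CG43112 (0.16), CG7567 (0.18), CG31259 (0.18) and CG15080 (0.20), against 0.75. These are likenesses over 4 libraries only.

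Summed levels of midgut and hemocyte markers were highest in the same 2 libraries as Def, and those of the other tissues were not. In the hemocyte sum galactose replicate 1 was only a little above glucose replicate 1, and most single genes did not follow it. Of the 7 tested hemocyte markers, Pxn and Sr-CI were highest in those 2 libraries, and Hml, NimC1, eater, PPO2 and crq were not. These genes were picked out after their values were seen. The summed level of the 7 midgut markers was 8033 and 12000 CPM on glucose and 10310 and 7327 on galactose, with none of the 7 at 0 in any library, so it was high in the same 2 libraries as Def, glucose replicate 2 and galactose replicate 1, and low in the other two. The part of midgut or hemocyte markers in the level of Def was not tested. The summed level of the 8 hemocyte markers was 246.4 and 317.1 CPM on glucose and 264.1 and 242.7 on galactose, and that of the 6 fat body markers 812.5 and 557.1 on glucose and 738.9 and 567.2 on galactose. In both sums the diets overlapped, but the most abundant marker of each was not lower in mean level on galactose. The hemocyte gene crq was at 124.2 and 121.7 CPM on glucose and 145.9 and 166.5 on galactose. The fat body gene apolpp was at 645.0 and 389.2 CPM on glucose and 603.1 and 475.0 on galactose. Both genes were named after their values were seen, and the sums without them were not computed. Most single markers of these lists were nonetheless lower on galactose, 6 of 7 tested hemocyte genes with a median log2 fold change of -0.76 and 4 of 5 fat body genes with a median of -0.54, and no gene of either list was called by edgeR or DESeq2. The fat body median turned to 0.05 without glucose replicate 1, with 2 of 5 genes negative, and the hemocyte median moved from -1.42, with galactose replicate 1 left out, to -0.36, with galactose replicate 2 left out. The part of these markers in the cecropin values was not tested. The 8 male reproductive tract markers summed to 3571 and 2539 CPM on glucose and to 1826 and 2456 on galactose, so both galactose sums were the lower ones. That rested on EbpIII, an ejaculatory bulb gene, which was at 717.2 and 937.6 CPM on glucose and 302.2 and 295.6 on galactose and which DESeq2 called as lower (adjusted p = 0.00769). EbpIII was named after its values were seen. It was the only 1 of the 8 without overlap between the diets, and the other 7 summed to 2853 and 1601 on glucose and 1524 and 2161 on galactose. All 8 had negative log2 fold changes, with a median of -0.23, but without glucose replicate 1 only 2 of 8 did and the median was 0.31. The 5 ovary markers summed to 8105 and 5237 on glucose and 7049 and 7182 on galactose.

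Other inducible peptides known chiefly as Imd targets had lower levels on galactose too. The peptide lists were drawn up with results of these samples known, so they are not independent evidence of a direction. Of 7 tested, edgeR called 0 and DESeq2 called 3, all lower, where it called 0.584% of all genes as lower. All 7 had both galactose values below both glucose values, as had 23.4% of all genes. Among them AttA, with 12 and 15 reads on glucose and 10 and 6 on galactose, passed the filter on low counts only through its glucose libraries. The median log2 fold change was -3.34, against -0.04 over all genes tested. Those with the smallest p were the attacin genes AttB and AttC and the diptericin gene DptB, the ones DESeq2 called. DptB was at 10.1 and 22.2 CPM on glucose and 2.57 and 0.58 on galactose, with a log2 fold change of -3.34 ± 0.73 (SE; edgeR adjusted p = 0.541). AttB was at 21.2 and 54.4 on glucose and 3.03 and 1.98 on galactose, with reads that may be shared with its near-identical copy AttA. AttC was at 67.0 and 139.6 on glucose and 8.84 and 1.89 on galactose. In all 3, glucose replicate 2 was more than 2-fold above glucose replicate 1 and galactose replicate 2 was the lowest library, while CecC had the same order of libraries with a smaller gap of 1.497-fold between the glucose libraries. CecA1 and CecA2 were lowest in galactose replicate 1. DptB and AttC share 10.7% and 5.89% of their exonic bases with genes on the opposite strand, and the labels do not say that counting used strand.

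The listed peptides known chiefly as Toll targets were all lower. The list does not hold every such peptide, and neither the drosomycin gene Drs nor BomT2 is in it. BomT2 had a log2 fold change of -1.97, smaller in size than that of any listed gene. Of 11 tested, edgeR called 0 and DESeq2 called 11, all lower, against 0.584% of all genes. The median log2 fold change was -3.28, and all 11 were without overlap, against 23.4% of all genes. Among them BomBc1, with 22 and 58 reads on glucose and 2 and 3 on galactose, passed the filter on low counts only through its glucose libraries. The Bomanin genes BomT1, BomS1 and BomBc3 had the smallest p. BomBc3 was at 93.9 and 334.8 CPM on glucose and 24.2 and 11.5 on galactose, BomS1 at 59.8 and 166.3 on glucose and 15.1 and 8.18 on galactose, and BomT1 at 7.95 and 18.8 on glucose and 1.66 and 0.94 on galactose (edgeR adjusted p = 0.541 for each). How many of the 11 and of the 7 Imd-linked peptides DESeq2 called depended on which library was left out, and the share of all genes it called varied as well. The median log2 fold change of the 11 in DESeq2 then lay between -3.88 without glucose replicate 1 and -2.175 without glucose replicate 2. That of the 7 lay between -4.74 without galactose replicate 1 and -2.465 without glucose replicate 2. Without glucose replicate 1 edgeR called 11 of the 11 and 5 of the 7, along with 2.75% of all genes, and without glucose replicate 2 it called 10 and 5, along with 0.874%. Without galactose replicate 1, and also without galactose replicate 2, it called 0 of either list and 0% of all genes as lower. Leaving out libraries was applied to these lists after the data were seen.

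Components of the Imd pathway itself showed no common direction. Of 12 tested, 4 were lower and 8 higher on galactose, with a median log2 fold change of 0.12, and edgeR and DESeq2 each called 0. Those with the smallest p were the receptor gene PGRP-LC, Rel, which encodes Relish, and akirin, which encodes a nuclear cofactor of Relish. PGRP-LC was at 35.4 and 48.3 CPM on glucose and 22.9 and 15.2 on galactose, with a log2 fold change of -1.13 ± 0.32 (SE; edgeR adjusted p = 0.582). Rel was at 150.3 and 225.7 on glucose and 122.8 and 94.1 on galactose (-0.79 ± 0.30 SE, adjusted p = 0.591). Of the 12, 4 had both galactose values below both glucose values, PGRP-LC and Rel among them, and 3 had both above. The shares of all genes tested were 23.4% and 18.8%. Akirin, 1 of the 3, was at 205.9 and 111.3 on glucose and 232.9 and 272.9 on galactose (0.67 ± 0.34 SE, adjusted p = 0.624).

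Of 10 inhibitors of the Imd pathway, 8 were lower and 2 higher on galactose, with a median of -0.24 and 0 called by either tool. PGRP-LF, a receptor that blocks PGRP-LC, was at 4.44 and 4.86 CPM on glucose and 2.2 and 1.3 on galactose (-1.40 ± 0.43 SE; edgeR adjusted p = 0.582), though 44.4% of its exon sequence faces a gene on the other strand and its reads may be shared. dnr1, which restrains the caspase Dredd of the pathway, was at 41.0 and 42.8 on glucose and 28.1 and 29.8 on galactose, and pirk, an inhibitor that is itself a Relish target, at 12.5 and 14.2 on glucose and 10.3 and 8.18 on galactose (adjusted p = 0.615 and 0.648). Each of these 3, named for having the smallest p, was lower in both galactose libraries. So were 4 of the 10 in all, against 23.4% of all genes tested. The 3 were lower by less than the cecropins apart from CecA1, which PGRP-LF matched in size.

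Of 17 Toll pathway components, 11 were lower and 6 higher on galactose, with a median of -0.55. edgeR called 0 and DESeq2 called 5, all lower, against 0.584% of all genes. How many of the 17 DESeq2 called changed with the library left out, as did the share of all genes it called. Their median log2 fold change in DESeq2 then ranged from -0.84 (galactose replicate 1 left out) to -0.26 (galactose replicate 2 left out). The recognition protein gene PGRP-SD was at 11.6 and 27.5 CPM on glucose and 4.15 and 2.92 on galactose (-2.46 ± 0.50 SE), nec, a serpin gene whose product restrains the protease cascade, at 153.3 and 322.8 on glucose and 76.7 and 55.5 on galactose (-1.85 ± 0.40), and the protease gene grass at 19.5 and 35.8 on glucose and 9.75 and 8.27 on galactose (-1.62 ± 0.38), with an edgeR adjusted p of 0.541 for each. All 3 act outside the cell, upstream of the receptor. Of 5 other factors that act at peptide promoters 0 were called, and foxo, Mef2 and cad had log2 fold changes of 0.58, 0.37 and 0.43 (edgeR adjusted p = 0.679, 0.686 and 0.789).

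**Figure D5:**
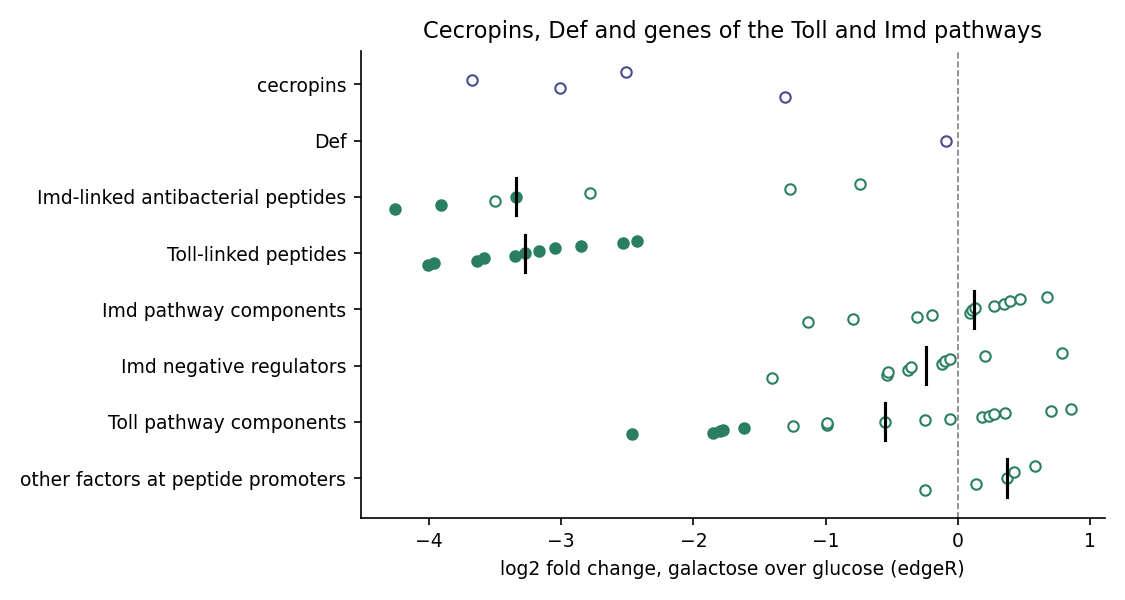
Log2 fold changes of galactose over glucose (edgeR) for the cecropins, Def and 6 lists of pathway genes, with 1 point per tested gene, filled where DESeq2 gave an adjusted p under 0.05, and a bar at each list's median. The cecropins lie between -3.67 and -1.31 with no filled point, within the range of the Imd-linked peptides (median -3.34), with CecA1 above every Toll-linked peptide (median -3.28) and Def near 0 at -0.09.

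In the authors' deposited table the same direction was given for the 4 cecropins. Turned to galactose over glucose, its log2 fold changes were -0.90 for CecA1, -0.94 for CecA2, -0.61 for CecB, -1.10 for CecC and -0.039 for Def, each smaller in size than the fit here. The mean levels in the authors' deposited table do not differ in this way from the fit: their log2 ratios were -1.25 for CecA1, -2.99 for CecA2, -3.77 for CecB, -2.5 for CecC and -0.06 for Def. The adjusted p in the authors' deposited table was 0.182 for CecA1, 0.21 for CecA2, 0.109 for CecC and 0.979 for Def, and none was given for CecB. None of the 5 was among the 87 genes that the authors' deposited table holds under an adjusted p of 0.05.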

How the data were processed

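The authors deposited raw read counts per gene for each of the 4 libraries, and a table of their own comparison. HTSeq 0.6.1, TopHat2 2.0.12, Bowtie2 2.2.3, DESeq2 and build BDGP6 are named in the submitters' processing notes, and no strand setting is given in the sources used here. Per the file headers, the authors' table gives a signal for each diet, a log2 fold change of glucose over galactose, and raw and adjusted p-values; the signal was checked to equal the mean count after division by DESeq2's size factors.

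Counts were tested with edgeR 4.0.16 in R 4.3.3 (TMM scaling, filterByExpr with a minimum count of 10 and a total of 15, quasi-likelihood F test, Benjamini-Hochberg adjustment over all genes, threshold 0.05), checked on simulated counts. Standard errors are the fold change over the root of F. Alternatives were DESeq2 1.42.0, limma-voom (limma 3.58.1), other scalings and filters, another prior count, each library left out in turn, and the replicate number as a block. Genes were named through the reference table, which names 17252 identifiers; 98 of 104 listed pathway and marker symbols matched. Coordinates come from the BDGP6.54 annotation. Members and lists were chosen with earlier results of these data known. The text names the members, the 5 genes most like each member with a mean of at least 20 counts, up to 3 genes per pathway list by smallest p, Anp and Rel. No group had enough libraries to test for a library that stands apart.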

Additional observations from a re-analysis of the deposited data

How the results depend on the processing

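The 4 cecropins had negative log2 fold changes under every alternative that could fit them, and with a stricter filter CecA2 and CecB could not be fitted. Every alternative reuses all or some of the same 4 libraries and is not separate evidence. Calls appeared when a library was left out. edgeR then called 0 to 3 of the 5 members and 0 to 549 genes in all, and DESeq2 called 0 to 1 members and 17 to 328 genes (48 without galactose replicate 1, 22 without galactose replicate 2). Without glucose replicate 1, which leaves a lone glucose library assumed to vary like the galactose ones, the log2 fold changes of CecA1, CecA2 and CecC were -1.29, -3.56 and -2.76 and passed. Ranges over the 4 libraries left out were -1.66 to -1.09 for CecA1, -4.20 to -2.16 for CecA2, -3.72 to -3.64 for CecB, -5.24 to -1.64 for CecC and -1.29 to 0.53 for Def. With DESeq2 they were -1.66 to -0.95, -4.29 to -2.04, -3.88 to -3.70, -5.17 to -1.64 and -1.16 to 0.53. Def was positive without glucose replicate 2 (0.40, and 0.49 with DESeq2) and without galactose replicate 2 (0.53 with either tool). With all libraries DESeq2 called 88 genes and limma-voom 0.

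With the replicate number as a block (replicate block), edgeR still called 0 genes and 0 members, and DESeq2 called 131 genes and 1 member, CecC at -3.06 (adjusted p = 0.0305). Deviations of same-numbered libraries correlated at 0.26 over genes, with 2 pairs only, so the numbers were not taken to pair the libraries. With 1 CPM required in 2 libraries, 2 members had no overlap instead of 4, because CecA2 and CecB were not tested. Median log2 fold changes of all genes were -0.04 with TMM, 0.01 with median-of-ratios and -0.15 with upper-quartile scaling, a shift of about 0.1 that is small beside the cecropin values; where no cause is given for a changed value, it was not tested. Depth limits CecB and CecA2 most, with 1 to 7 reads in the galactose libraries.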
